A study of Mus musculus with 4 samples.

Results

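The 10 genes described here belong to the integrated stress response and to the amino acid metabolism that it controls: Atf4, Atf5, Ddit3, Asns, Chac1, Trib3, Psat1, Phgdh, Slc7a11 and Ppp1r15a. They were chosen by name, as a pathway, with earlier results of these data known. They were read from the 55487 gene rows of 1 deposited count table through the GRCm38 annotation. The symbols matched 11 rows, because Ddit3 stands under 2 gene IDs. The shorter of these (0.105 kb of exon, all of it inside the longer Ddit3 gene) had 0 counts in all 4 libraries, and the longer was used. All 10 genes passed the filter on low counts, and the smallest count of any of them in a library was 30.

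The table holds bulk RNA-seq of skeletal stem cells that were freshly sorted from collagenase-digested metaphyses of mouse long bones. The groups are wild-type mice after a sham operation (2 libraries) and wild-type mice after ovariectomy (2 libraries). Ovariectomy takes away most oestrogen and serves as a model of bone loss after the menopause. Both groups carry a time of 8 weeks, and the labels do not say if this is an age or a time after surgery, nor which animals or pools gave each library. The p-values below therefore weigh the difference between the groups against a spread between libraries that may be technical.

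In the integrated stress response, kinases that sense amino acid shortage, unfolded protein, haem shortage or viral RNA phosphorylate the translation factor eIF2. Bulk translation then falls while the mRNA of ATF4 is translated more, so ATF4 protein can change with no change in Atf4 mRNA, and only mRNA was measured here. ATF4 switches on genes for amino acid import and synthesis, for glutathione metabolism and for feedback. In bone-forming cells ATF4 is known for its part in osteoblast maturation and in the supply of amino acids for collagen synthesis.

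After ovariectomy 2 of the 10 genes changed, in opposite directions. Asns, which encodes asparagine synthetase, rose 1.72-fold. Chac1, which encodes an enzyme that breaks down glutathione, fell 2.33-fold. A change was called at an adjusted p under 0.05 in the two-sided quasi-likelihood test of edgeR over 17120 genes. In that test 4.18% of all genes changed, 2.98% being higher and 1.20% lower. The share of the 10 genes that changed was 20.0%, and their median log2 fold change was 0.11 against -0.02 for all genes tested. As the 10 genes were chosen with earlier results known, these values are descriptions. The other 8 genes did not pass, among them Atf4 itself. Levels are given as CPM, the share of a library's counts after TMM scaling, with replicate 1 before replicate 2, and fold changes are ovariectomy over sham. In bulk samples fewer cells of a type and less RNA per cell cannot be told apart.

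**Figure D1:**
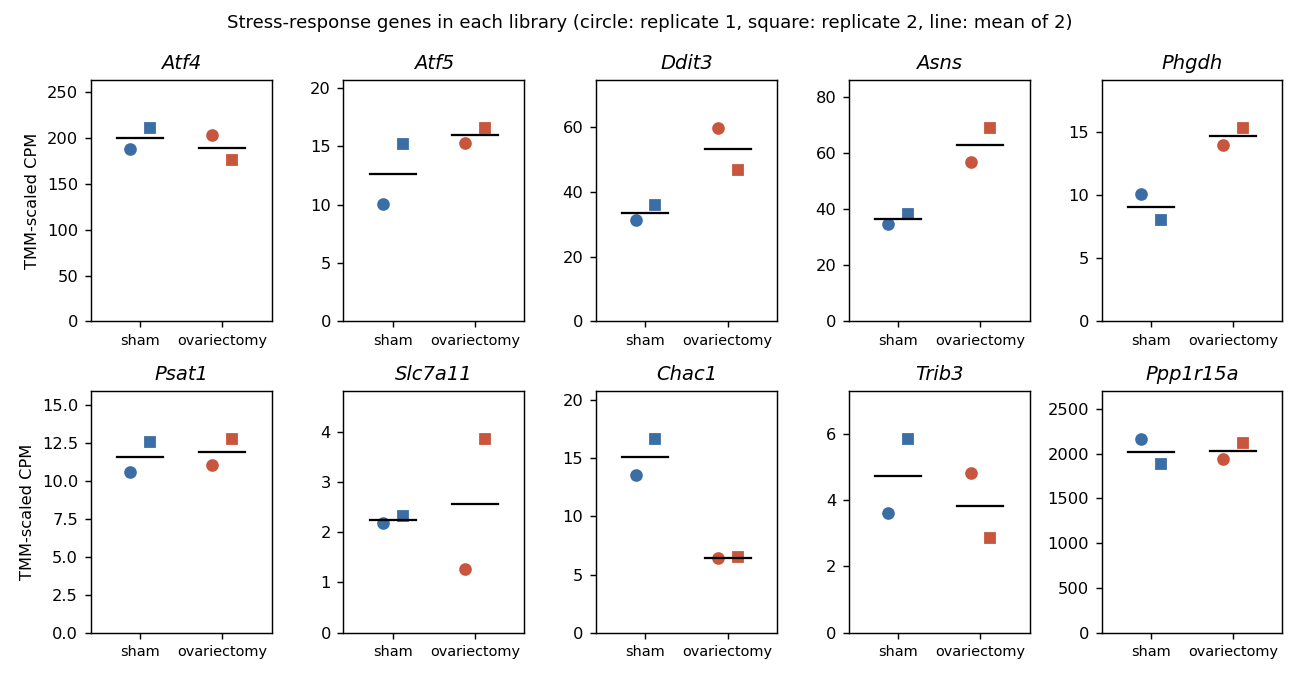
TMM-scaled CPM (vertical axis, from 0) of the 10 genes in each library, with sham in blue and ovariectomy in red, replicate 1 as a circle, replicate 2 as a square and the mean of 2 as a line. Both ovariectomy libraries lie above both sham libraries for Asns (56.8 and 68.9 against 34.8 and 38.1 CPM) and below them for Chac1 (6.38 and 6.54 against 13.6 and 16.6 CPM).

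Asns (ENSMUSG00000029752, GRCm38 chromosome 6, 7675169 to 7693254, minus strand) makes asparagine from aspartate and glutamine. Its level was 34.8 and 38.1 CPM in the sham pair against 56.8 and 68.9 CPM in the ovariectomy pair. Both ovariectomy libraries were higher than both sham libraries, and the gap between the groups was larger than the spread within either. The mean rose from 36.5 ± 2.35 to 62.8 ± 8.55 CPM (SD, n = 2), a log2 fold change of 0.78 ± 0.16 SE (95% interval 0.41 to 1.16, edgeR adjusted p = 0.0406). Its exons share no base with another annotated gene.

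Chac1 (ENSMUSG00000027313, GRCm38 chromosome 2, 119351229 to 119354381, plus strand) encodes a gamma-glutamylcyclotransferase that acts on glutathione, and it is known as a target of ATF4 and CHOP. Its level was 13.6 and 16.6 CPM in the sham pair against 6.38 and 6.54 CPM in the ovariectomy pair. The ovariectomy libraries nearly coincided, and both lay below the lower sham library. The mean fell from 15.1 ± 2.15 to 6.46 ± 0.113 CPM (SD, n = 2), a log2 fold change of -1.22 ± 0.25 SE (95% interval -1.82 to -0.62, edgeR adjusted p = 0.0458). The call was missed with library totals as the only scaling (edgeR adjusted p = 0.052). That scaling moved the median of all genes by 0.11 log2 units and the calls from 510 higher and 206 lower to 718 higher and 156 lower. Relative to the median gene the change of Chac1 was -1.21 as reported and -1.20 with library totals. Its exons share no base with another gene either.

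A ratio of Asns to Chac1 within a library does not depend on scaling. For each Chac1 count the sham pair held 2.57 and 2.29 Asns counts and the ovariectomy pair 8.89 and 10.5. The groups did not overlap. With 2 libraries a group an exact two-sided permutation test cannot give a p below 0.333, and it gave 0.333. The pair was set side by side because both had been called. Asns was higher and Chac1 lower in both ovariectomy libraries, so the separation of this ratio was fixed in advance. It adds no support to either call. Of 6 such ratios computed each gave 0.333, also after Benjamini-Hochberg adjustment.

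Neither call held once an ovariectomy library was dropped. Leaving out replicate 1, and likewise replicate 2, left 1 library in that group, and the calls over the whole table were lost too. The log2 fold changes were then 0.94 and 0.65 for Asns and -1.19 and -1.23 for Chac1. Without sham 1 and without sham 2 the log2 fold changes were 0.72 and 0.86 for Asns and -1.36 and -1.06 for Chac1. In these fits the spread within a group came from the ovariectomy pair alone, and more genes were called over the whole table. Calls in them are therefore no sign of robustness.

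Markers of several cell types moved with the groups. For the counts of markers called, the share over all genes was 4.18%, with 2.98% higher and 1.20% lower. The 4 libraries held 18291436 to 23721078 counts. Of the 6 sort antigens tested, Cd200 fell, with 237 and 305 CPM in the sham pair against 173 and 155 CPM in the ovariectomy pair (log2 fold change -0.73, edgeR adjusted p = 0.0462). Eng, Enpep and Tek were higher in both ovariectomy libraries, by 2.15-fold, 2.34-fold and 3.01-fold in the means, and did not pass (edgeR adjusted p = 0.150, 0.220 and 0.474). Itgav lay at 67.3 to 72.0 CPM and Ptprc at 3.55 to 9.55 CPM with overlapping groups, and Thy1, at 0.134 to 0.211 CPM, was too low to be tested. Of 12 chondrocyte markers 11 fell, and their sum was 153851 to 165039 CPM in sham and 86906 to 98540 CPM in ovariectomy libraries. Of 10 osteoblast markers 4 fell and 1 rose (sums of 84593 to 113992 and 69351 to 75642 CPM), and of 9 stem and stromal progenitor markers 6 rose (356 to 467 and 963 to 1072 CPM). Erythroid markers rose in 5 of 11 cases (41.0 to 56.7 and 185 to 261 CPM), granulocyte markers in 2 of 10 (88.8 to 140 and 184 to 290 CPM), pericyte and smooth muscle markers in 3 of 9 (311 to 343 and 587 to 637 CPM) and lymphocyte markers in 1 of 4 (2.85 to 2.99 and 9.98 to 16.8 CPM, with Cd8a at 0 counts throughout). Most of the rise in the pericyte sum was Rgs5 (5.66 and 46.4 CPM in sham, 295 and 361 CPM in ovariectomy libraries). Cspg4 of that list was lower in both ovariectomy libraries. Most of the rise in the mean granulocyte sum was Mpo (3.39 and 0.490 CPM in sham, 58.3 and 110 CPM in ovariectomy libraries). S100a9, Ltf, Camp and Ngp had overlapping groups. Of the 8 monocyte and 9 endothelial markers tested edgeR called 0 (4 and 2 at an unadjusted p under 0.05, against 18.4% of all genes). The sums of monocyte markers were 65.7 to 77.6 and 103 to 141 CPM, and those of endothelial markers 17.6 to 55.7 and 56.7 to 84.9 CPM. Immediate-early genes, which also answer to tissue digestion, rose in 5 of 12 cases (42332 to 45680 and 53086 to 53453 CPM). The part of these shifts in the changes of Asns and Chac1, and of the surrounding genes read below, was not tested.

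The promoters of Asns and Chac1 are shown because ATF4 binds, with a C/EBP partner, at a C/EBP-ATF response element (CARE), and these 2 genes are the ones that changed. The letters TGATGNAAN were searched on both strands of the RefSeq promoter windows (GRCm38.p6, 250 bases before to 50 after a start site), which cover all 10 genes in 12 windows. A match was found for 4 of the 10 genes (Asns, Chac1, Slc7a11 and Trib3), where 4.50% of all 27025 symbols with a window have 1, and 3.95% of all windows. The 10 genes were chosen as part of the response that ATF4 drives, so this share is a description and not a test. The stretches below run 5′ to 3′ on the strand of the gene and end just before the RefSeq start site, and capitals mark the match.

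Asns, chr6:7693210-7693459, minus strand: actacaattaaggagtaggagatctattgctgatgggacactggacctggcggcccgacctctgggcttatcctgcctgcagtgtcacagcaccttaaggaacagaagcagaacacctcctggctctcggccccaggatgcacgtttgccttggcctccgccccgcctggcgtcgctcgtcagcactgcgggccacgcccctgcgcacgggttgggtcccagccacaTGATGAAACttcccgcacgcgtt

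Chac1, chr2:119350992-119351241, plus strand: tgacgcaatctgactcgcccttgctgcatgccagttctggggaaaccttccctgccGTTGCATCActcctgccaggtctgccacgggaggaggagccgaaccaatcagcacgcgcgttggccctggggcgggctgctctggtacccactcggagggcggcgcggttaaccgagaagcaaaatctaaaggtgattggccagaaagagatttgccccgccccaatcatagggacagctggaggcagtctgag

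The Asns match begins 23 bases before the RefSeq start site, reads on the strand of the gene, and lies inside the first exon of the longer GENCODE model. The Chac1 match begins 194 bases before the start site and reads on the opposite strand. Asns and Chac1 both hold a match to the letters and moved in opposite directions. Slc7a11 and Trib3 hold matches too, and neither gene passed the edgeR test. Binding of ATF4 at any of these matches was not tested. Slc7a11 has a pair of matches that face each other, as 23 windows (0.070% of all) have 2 or more. The Trib3 match begins at base 14 after the RefSeq start site. Both are shown with 10 bases on either side.

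Slc7a11, chr3:50443643-50443689, minus strand: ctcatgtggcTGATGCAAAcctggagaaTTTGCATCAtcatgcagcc

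Trib3, chr2:152344029-152344057, minus strand: ttagctcaggTTTACATCAgccgggcggg

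The windows of Atf4, Atf5, Ddit3, Phgdh, Psat1 and Ppp1r15a do not hold these letters, which says nothing of sites elsewhere. Among the 348 tested genes of the whole table that have a match, 26 were higher and 6 lower (9.20% changed), where 390 were higher and 153 lower (4.56%) of the 11914 tested genes that have a window. Their median log2 fold change was 0.00. These shares are descriptions, and no test of their difference was made.

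**Figure D2:**
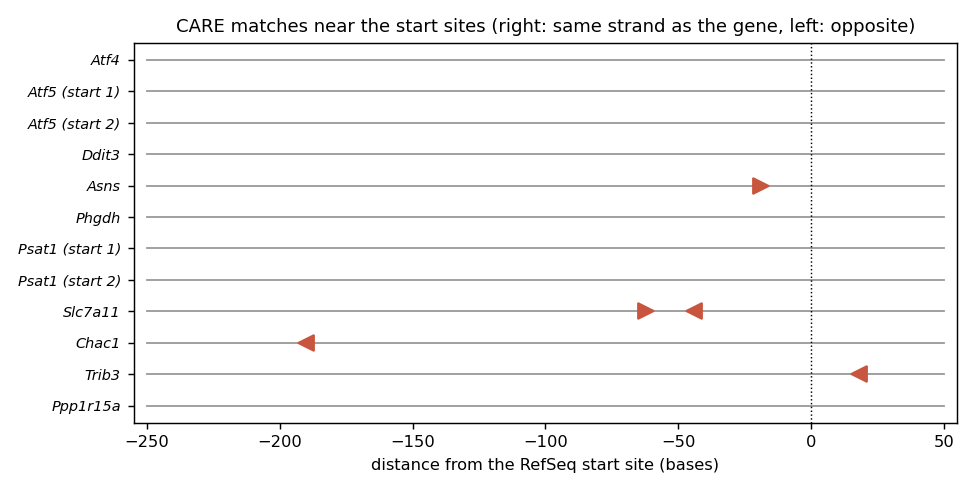
Matches to the CARE letters in the promoter windows of the 10 genes, by distance from the RefSeq start site in bases (dotted line: start site), with 2 windows each for Atf5 and Psat1. Arrows to the right read on the strand of the gene and arrows to the left on the opposite strand. Matches stand in Asns, Chac1, Trib3 and, as a facing pair, Slc7a11.

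The 3 transcription factors differed in level and in how they stood between the groups. Atf4 (ENSMUSG00000042406, chromosome 15, 80255184 to 80257541), the main effector of the response, measured 189 and 211 CPM in the sham pair against 203 and 176 CPM in the ovariectomy pair. The groups overlapped. Its log2 fold change was -0.08 ± 0.13 SE, with a 95% interval from -0.38 to 0.23 (edgeR adjusted p = 0.849), and the sign turned with library totals (0.03). Per Atf4 count there were 0.184 and 0.181 Asns counts in the sham pair against 0.280 and 0.391 in the ovariectomy pair, and 0.0719 and 0.0787 Chac1 counts in the sham pair against 0.0314 and 0.0371 in the ovariectomy pair. Neither ratio overlapped between the groups (exact permutation p = 0.333 for each, the smallest the design allows). Asns and Chac1 were taken because they had been called, and Atf4 changed little, so these ratios largely repeat the 2 calls. Among all genes 49.3% had groups that did not overlap.

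Ddit3 (ENSMUSG00000025408, chromosome 10, 127290774 to 127296288) encodes CHOP, a factor linked to cell death under lasting stress. It measured 31.2 and 35.9 CPM in the sham pair against 59.6 and 46.6 CPM in the ovariectomy pair. Both ovariectomy libraries were higher, and they differed from each other more than the sham libraries did. The log2 fold change was 0.66 ± 0.18 SE (95% interval 0.25 to 1.08) and did not pass (edgeR adjusted p = 0.0954). It passed with DESeq2 (adjusted p = 0.0277), with library totals (edgeR adjusted p = 0.0447), with no filter (edgeR adjusted p = 0.00631) and at a mean of at least 5 CPM (edgeR adjusted p = 0.0381). Without 1 library its log2 fold change was 0.49 to 0.84. Other annotated gene IDs cover 10.9% of its exon length, including Mars on the opposite strand, and the strand setting of the counting is not given in the sources used here.

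Atf5 (chromosome 7, 44812256 to 44816658), a relative of ATF4 that is tied to stress in mitochondria, measured 10.04 and 15.2 CPM in the sham pair against 15.3 and 16.6 CPM in the ovariectomy pair. Sham 2 lay next to ovariectomy 1, so the groups were only just separate. The log2 fold change was 0.33 ± 0.26 SE (95% interval -0.29 to 0.96, edgeR adjusted p = 0.594).

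Of the serine synthesis pair, Phgdh (chromosome 3, 98313170 to 98339990) encodes the first enzyme of the pathway from glycolysis to serine. It measured 10.1 and 8.01 CPM in the sham pair against 14.0 and 15.3 CPM in the ovariectomy pair. Both ovariectomy libraries were higher, and the spread within each group was smaller than the gap. The log2 fold change of 0.70 ± 0.25 SE (95% interval 0.11 to 1.28) did not pass (edgeR adjusted p = 0.189, and 0.137 to 0.262 over the 8 alternatives that use all libraries). Psat1 (chromosome 19, 15904678 to 15947337), the aminotransferase of the next step, measured 10.6 and 12.6 CPM in the sham pair against 11.0 and 12.7 CPM in the ovariectomy pair. The groups of Psat1 overlapped, with a log2 fold change of 0.04 ± 0.24 SE (95% interval -0.54 to 0.61, edgeR adjusted p = 0.967). Phgdh counts per Psat1 count were 0.954 and 0.638 in the sham pair against 1.27 and 1.20 in the ovariectomy pair, so this ratio did not overlap (exact permutation p = 0.333, the smallest the design allows). Phgdh alone did not overlap either, as was so for 49.3% of all genes.

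Slc7a11 (chromosome 3, 49892526 to 50443614), the cystine-glutamate exchanger that feeds glutathione synthesis, had 49 and 52 counts in the sham pair against 30 and 74 in the ovariectomy pair. The ovariectomy libraries lay on either side of the sham pair. The interval of its log2 fold change ran from -1.32 to 1.68 (edgeR adjusted p = 0.939), and the sign turned with limma-voom and with the replicate block.

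The 2 feedback genes stood far apart in level. Ppp1r15a (chromosome 7, 45522916 to 45526268) encodes GADD34, the stress-induced subunit of the phosphatase that restores eIF2, and it is also switched on rapidly by other stimuli. It measured 2159 and 1881 CPM in the sham pair against 1939 and 2122 CPM in the ovariectomy pair. It ranked 55th of 17120 genes by mean CPM, and its groups overlapped (log2 fold change 0.01 ± 0.11 SE, 95% interval -0.25 to 0.26, edgeR adjusted p = 0.986). Trib3 (chromosome 2, 152337422 to 152344032), a pseudokinase that restrains ATF4, measured 3.61 and 5.83 CPM in the sham pair against 4.82 and 2.86 CPM in the ovariectomy pair. Its groups overlapped as well (log2 fold change -0.30 ± 0.45 SE, 95% interval -1.34 to 0.75, edgeR adjusted p = 0.819).

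Per kilobase of exon, the mean of the 4 libraries was highest for Ppp1r15a, at 690 CPM per kb, and next for Atf4, at 82.6 CPM per kb. Ddit3 (25.3 CPM per kb) and Asns (18.1 CPM per kb) followed, and their ranges over the libraries overlapped. Next came Atf5 (7.17), Chac1 (6.58) and Phgdh (4.77 CPM per kb), where each range over the libraries overlapped with both others. Psat1 (2.76) and Trib3 (2.01 CPM per kb) overlapped with each other, and Slc7a11 was lowest at 0.173 CPM per kb. In the group means Chac1 stood above Atf5 and Phgdh in sham cells (9.21 against 6.34 and 3.64 CPM per kb) and below both in ovariectomy cells (3.95 against 8.00 and 5.90 CPM per kb).

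Counted without a threshold on p, the 2 groups did not overlap for 5 of the 10 genes, with Asns, Ddit3, Phgdh and Atf5 higher and Chac1 lower. This is close to the share among all genes, 49.3%. At an unadjusted p under 0.05 there were 4 of the 10 genes (Asns, Chac1, Ddit3 and Phgdh), against 18.4% of all genes. Other rules made 3 calls among the 10 genes, adding Ddit3. These were DESeq2 (8.21% of all genes), no filter on low counts (4.59%) and a mean of at least 5 CPM (11.0%, with 8 of the 10 genes tested). With library totals there were 2 calls, Asns and Ddit3 (5.11%).

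**Figure D3:**
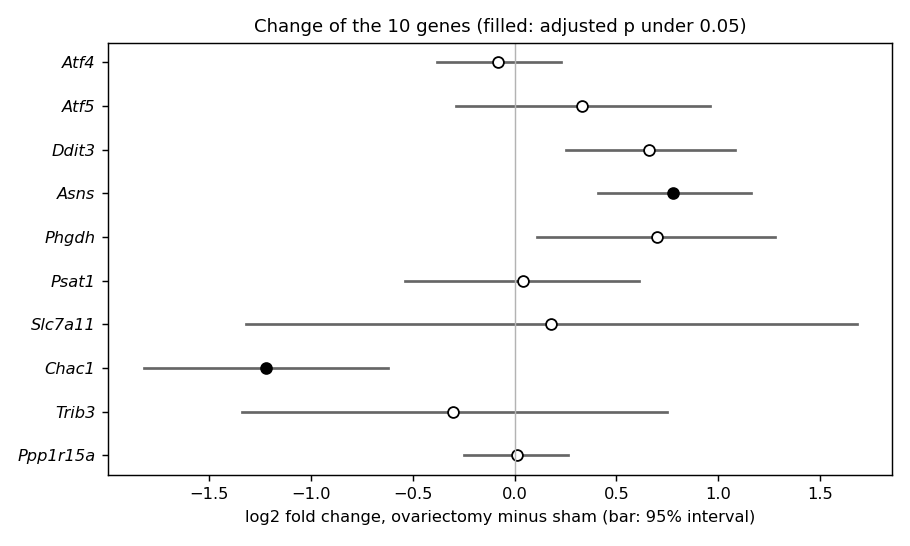
Log2 fold change (horizontal axis, ovariectomy minus sham) of the 10 genes with 95% intervals from the edgeR fit, filled where the adjusted p is under 0.05. The intervals of Asns (0.41 to 1.16) and Chac1 (-1.82 to -0.62) lie on opposite sides of 0, and that of Slc7a11 is the widest of the 10.

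**Figure D4:**
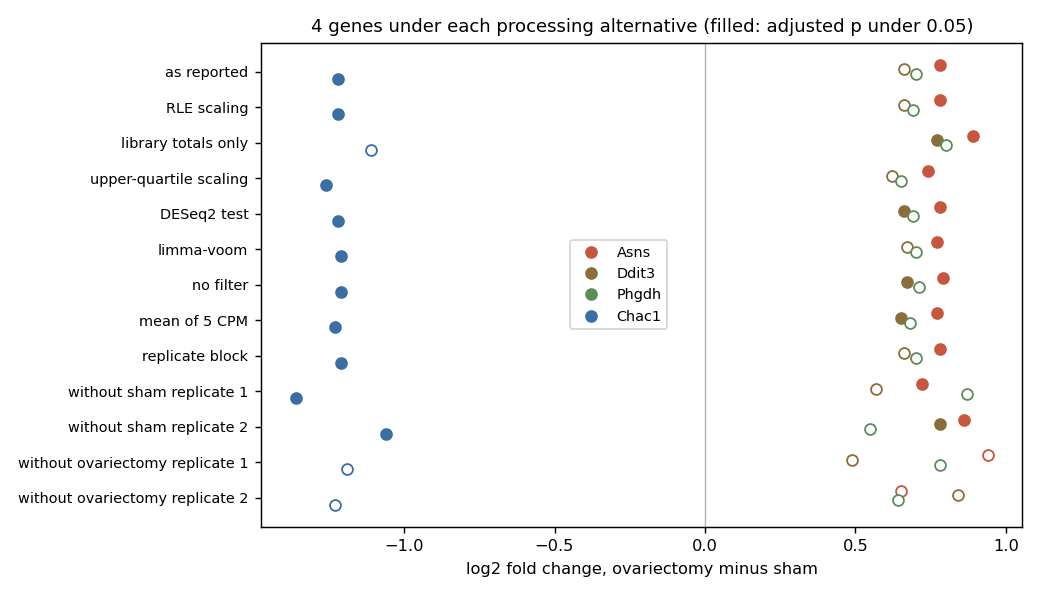
Log2 fold change (horizontal axis) of Asns, Ddit3, Phgdh and Chac1 as reported and under each of the 12 processing alternatives, filled where the adjusted p is under 0.05. Each gene keeps its sign in all rows, and none is filled without ovariectomy replicate 1 or 2.

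The genes around the 10 were read from 7 lists that hold 118 genes, of which 117 were tested. In all, 9 rose and 3 fell (10.3%, against 4.18% of all genes). With the filter at a mean of at least 5 CPM, 15 of the listed genes and 11.0% of all genes were called. The lists were chosen with earlier results of these data known, so these shares are descriptions. Upstream, the list of eIF2 kinases and of eIF2 and eIF2B subunits had 0 of 14 genes called by edgeR, 1 by DESeq2 and 0 by limma-voom, and 1 gene below an unadjusted p of 0.05, at a median log2 fold change of 0.00. Eif2ak3, which encodes PERK, the kinase of the endoplasmic reticulum, measured 4.82 and 3.78 CPM in the sham pair against 9.64 and 11.1 CPM in the ovariectomy pair. Its groups did not overlap (log2 fold change 1.27 ± 0.30 SE), and it did not pass (edgeR adjusted p = 0.0691). It passed with DESeq2 (adjusted p = 0.0394) and, in edgeR, with library totals (adjusted p = 0.0495), with no filter (0.0159) and at a mean of at least 5 CPM (0.0392). Without 1 library its log2 fold change was 1.11 to 1.45. Eif2b5, a subunit of the exchange factor of eIF2, had a log2 fold change of 0.33 ± 0.19 SE (edgeR adjusted p = 0.416).

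Of 20 tested genes listed as other targets of ATF4 and CHOP, 3 rose and 1 fell, with a median log2 fold change of 0.31. The share called was 20.0%, against 4.18% of all genes. Atf3, a stress-induced repressor, measured 879 and 949 CPM in the sham pair against 1753 and 1670 CPM in the ovariectomy pair (log2 fold change 0.90 ± 0.10 SE, edgeR adjusted p = 0.00501). Cebpb, a C/EBP partner of ATF4, rose from 47.1 and 53.0 to 123 and 104 CPM, and 20.7% of its exon length is shared with Tmem189. Nupr1, a stress-induced chromatin protein, rose from 269 and 309 to 585 and 452 CPM. Stc2, a secreted stanniocalcin, fell from 119 and 116 to 72.4 and 64.4 CPM, which is -0.78 ± 0.13 SE as a log2 fold change (adjusted p = 0.0202 by edgeR). The list thus held changes in both directions, as the 10 genes did. Fgf21, a secreted hormone named here after its values were seen, had 0 and 1 counts in sham and 40 and 21 in ovariectomy libraries and did not pass (edgeR adjusted p = 0.0775).

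In the serine, one-carbon and proline synthesis list 3 of 15 genes rose and none fell (20.0%, against 4.18% of all genes). The median log2 fold change was 0.02, and 1 of the 3 is an enzyme of folate metabolism. Glul, glutamine synthetase, measured 23.7 and 38.0 CPM in the sham pair against 93.8 and 123 CPM in the ovariectomy pair (3.52-fold, edgeR adjusted p = 0.00971). Got1, the cytosolic aspartate aminotransferase, rose 2.78-fold, from 12.5 ± 3.95 to 34.7 ± 4.49 CPM (SD, n = 2). Glutamine and aspartate are the substrates of asparagine synthetase, and a link between these rises and that of Asns was not tested. Mthfd1l, a mitochondrial enzyme of one-carbon metabolism, rose 2.46-fold (edgeR adjusted p = 0.0410). Psph, the enzyme that follows Psat1 in serine synthesis and is named here for that place, measured 14.9 and 16.2 CPM in the sham pair against 15.7 and 15.4 CPM in the ovariectomy pair.

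Of 16 amino acid transporters 1 rose and 2 fell (18.75%, against 4.18% of all genes), with a median log2 fold change of 0.21. Slc7a2, a carrier of cationic amino acids, rose from 36.6 and 40.2 to 62.4 and 60.9 CPM (edgeR adjusted p = 0.0431, and 0.0579 without sham 1). Slc38a2, a carrier of neutral amino acids that is known to be induced by amino acid shortage, fell from 529 and 635 to 360 and 359 CPM, which is -0.69 ± 0.12 SE as a log2 fold change (adjusted p = 0.0256 by edgeR). Its relative Slc38a4 fell from 36.1 and 32.99 to 16.4 and 17.0 CPM, which is -1.05 ± 0.17 SE as a log2 fold change (adjusted p = 0.0201 by edgeR).

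None of the 20 aminoacyl-tRNA synthetase genes was called by edgeR (0 at an unadjusted p under 0.05, 0 by DESeq2 and 0 by limma-voom), and their log2 fold changes ran from -0.21 to 0.41. Farsa had the smallest p (log2 fold change 0.41 ± 0.21 SE, edgeR adjusted p = 0.374), followed by Hars (0.28 ± 0.17 SE, edgeR adjusted p = 0.466). Of 20 genes of the ATF6 and IRE1 branches of the unfolded protein response, 0 were called by edgeR (4 at an unadjusted p under 0.05, 2 by DESeq2 and 1 by limma-voom), with a median of -0.10. Among all genes 18.4% had an unadjusted edgeR p under 0.05, and DESeq2 called 8.21%. Hspa5, the chaperone BiP, measured 3088 and 2776 CPM in the sham pair against 2272 and 2297 CPM in the ovariectomy pair. It did not pass with edgeR (log2 fold change -0.36 ± 0.10 SE, adjusted p = 0.0951) and passed with DESeq2 (adjusted p = 0.0118) and limma-voom (adjusted p = 0.0333). Pdia6, a protein disulfide isomerase, had a log2 fold change of -0.40 ± 0.12 SE (edgeR adjusted p = 0.123, DESeq2 adjusted p = 0.0159).

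Of 12 genes of the NRF2 and glutathione list, which share Slc7a11's link to redox balance, 2 rose and none fell. The share called was 16.7%, against 4.18% of all genes. Nfe2l2, which encodes NRF2 itself, rose from 67.7 and 74.7 to 124 and 124 CPM (edgeR adjusted p = 0.0166), and Hmox1, haem oxygenase, from 43.7 and 39.9 to 79.5 and 70.3 CPM (edgeR adjusted p = 0.0221). The rest of the list, with Gclc, Gclm and Gss of glutathione synthesis, did not pass. All 12 calls in the 7 lists were lost without ovariectomy 1 and likewise without ovariectomy 2, as were the calls over the whole table. The 12 genes kept their signs, and Atf3 had log2 fold changes of 0.89 and 0.95 and Cebpb of 1.08 and 1.31 in these fits. Without sham 2 the spread within a group came from the ovariectomy pair alone, and more genes were called in the lists and over the whole table.

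**Figure D5:**
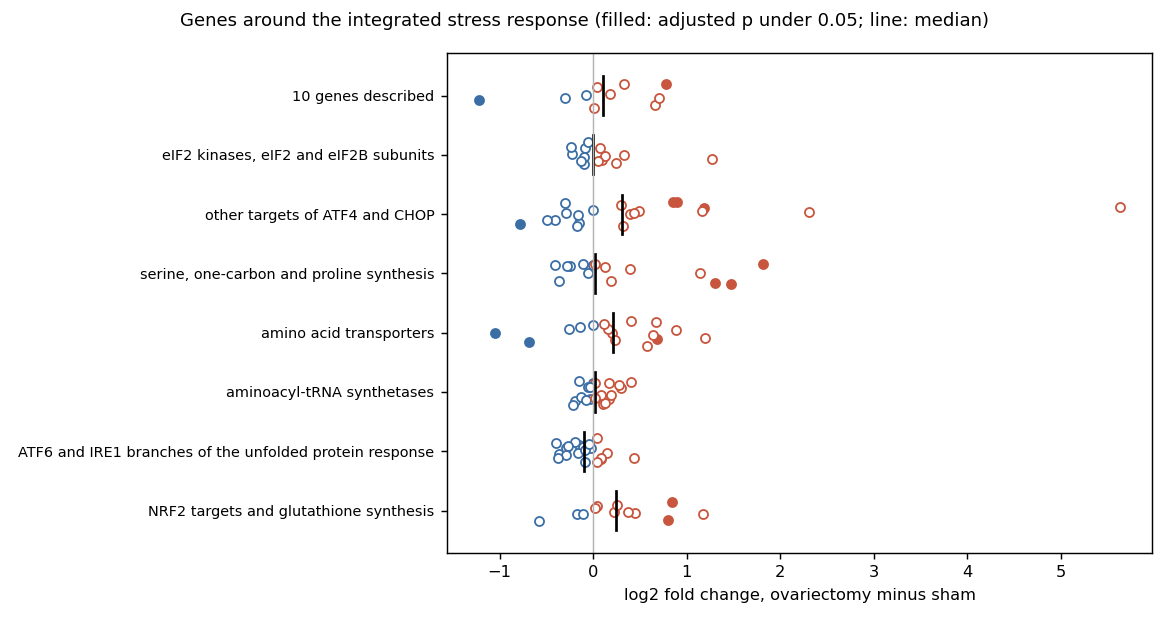
Log2 fold change (horizontal axis, ovariectomy minus sham) of each tested gene of the 10 and of the 7 surrounding lists, with red above 0 and blue below 0, filled where the adjusted p is under 0.05, and a black line at each median. The aminoacyl-tRNA synthetases lie between -0.21 and 0.41 with none filled, and the open point on the far right is Fgf21.

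The CARE letters stand in 17 of the 89 surrounding genes that have a window (19.1%, where 4.50% of all symbols have them). The lists include genes chosen as targets of ATF4, which binds at this element, so this share is a description and not a test. Of the 16 of these that were tested, 3 were called, Atf3, Nupr1 and Got1, all higher. The share called was 9.20% among all tested genes with a match and 10.3% among the tested genes of the 7 lists. No test of a difference was made.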

How the data were processed

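The deposited table gives raw counts by Ensembl gene ID for 2 sham and 2 ovariectomy libraries. The submitters' processing notes name Trim Galore 0.6.6, featureCounts 2.0.1 and GRCm38. Neither aligner nor annotation release nor strand setting is named there. GENCODE M21 gave symbols for 55227 of 55487 IDs, and exon lengths.

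Genes were filtered with filterByExpr (17120 kept), scaled by TMM and fitted in edgeR 4.0.16 (R 4.3.3; glmQLFit and glmQLFTest, two-sided) with group alone in the model, with Benjamini-Hochberg adjustment over all genes tested. SE is the log2 fold change divided by the square root of F. The spread of each gene was in part borrowed from other genes (5.29 prior against 2 residual degrees of freedom), and SE, intervals and p-values rest on this. Replicates differed by more than sampling noise (chi-square per degree of freedom 20.0 in sham, 9.39 in ovariectomy). DESeq2 1.42.0 and limma-voom (limma 3.58.1) were alternatives. Promoter windows came from RefSeq.

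The 10 genes and all lists were chosen with earlier results of these data known. Of each surrounding list the text names up to 3 called genes per direction by p or, where none was called, the 2 with the smallest p. Fgf21, Psph and Gclc, Gclm and Gss fall outside this rule.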

Additional observations from a re-analysis of the deposited data

How the results depend on the processing

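The number of genes called over the whole table was 716 as reported, 1406 with DESeq2, 1656 with no filter on low counts, 1105 at a mean of at least 5 CPM and 0 to 1835 without 1 library. Of the 10 genes 2 were called as reported and 0 to 3 without 1 library. Of the surrounding genes 12 were called as reported and 0 to 20 without 1 library. The cause was not tested. Asns was called under all 8 alternatives that use every library (log2 fold change 0.74 to 0.89) and Chac1 under 7 of 8 (-1.26 to -1.11). Some genes that were not called changed sign. Atf4 was at 0.03 with library totals and at -0.16 to 0.04 without 1 library. Psat1 was at -0.00 with upper-quartile scaling and at -0.08 to 0.18 without 1 library. Slc7a11 was at -0.10 with limma-voom and at -0.81 to 0.79 without 1 library. Ppp1r15a was at -0.04 with upper-quartile scaling, at -0.01 at a mean of 5 CPM and at -0.08 to 0.11 without 1 library. Trib3 was at -0.71 to 0.10 without 1 library.

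The groups share replicate numbers, but the deviations of same-numbered libraries did not go together (r = 0.00429 across genes, 2 pairs), and no label ties a number to an animal, batch or day, so the numbers were not taken as pairs. A shared batch or day was not tested. With the replicate block 1074 genes were called over the whole table, 2 of the 10 genes and 13 of the surrounding genes, and Slc7a11 was at -0.01. The lowest mean counts were those of Slc7a11 and Trib3, at 30 to 131 per library, and both differed between replicates (30 and 74 for Slc7a11 and 114 and 55 for Trib3 in the ovariectomy pair).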
